A study of Mus musculus with 15 samples.

Results

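Genes of the Wnt, Hedgehog and Notch signalling families were followed in mouse ovaries that carried 0, 1 or 2 intact copies of Foxl2, a forkhead transcription factor of ovarian somatic cells. The members were taken by gene name: every probe of the array whose RefSeq accession maps to a current mouse symbol of the Wnt, Frizzled, Sfrp, Dkk, R-spondin, Axin, Dishevelled, Lef/Tcf, Notch, Delta, Jagged, Hes, Hey, Patched, Gli, Hedgehog or Smoothened families. This gave 68 probes of 60 genes, out of 12254 named genes on the array. Wnt genes made up 38 of them, Notch genes 17 and Hedgehog genes 5. A gene with more than 1 probe, which applied to 8 members, is given by the probe with the higher mean ovary signal. The names hold 77 symbols in the reference annotation, of which 17 had no named probe, among them Wnt4, Wnt5a, Wnt9a, Sfrp1, Jag1, Gli2 and Smo, and 1 further R-spondin is not reported here.

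In the canonical Wnt pathway, a secreted Wnt protein binds a Frizzled receptor, Dishevelled relays the signal, and stabilized beta-catenin acts with Lef/Tcf factors on target genes, whereas Dkk and Sfrp proteins are secreted antagonists. In the Hedgehog pathway, a secreted ligand binds Patched and releases Smoothened, which acts through the Gli factors, and Gli1 and Ptch1 are themselves transcribed in response. Notch receptors are cleaved when a Delta or Jagged ligand on a neighbouring cell binds them, and the freed fragment acts with RBPJ on the Hes and Hey genes. In the ovary, Wnt signalling is known for its part in female somatic fate, Hedgehog ligands for their passage from granulosa cells to theca cells, and Notch for its part in the breakdown of germ cell nests.

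RNA of whole ovaries was hybridized to 15 Agilent arrays, with ovary RNA in Cy3 and a common reference pooled from cultured mouse cells in Cy5 on each. Newborn ovaries came as 3 Foxl2-null, 3 heterozygous and 3 wild-type samples, and ovaries at 7 days postnatum (7 dpn) as 2 of each genotype. Null samples are labelled Foxl2-/-, and all groups were females of a strain that the labels give as NIHS-BC and the methods describe as a mix of that stock with a further inbred strain. Per the methods, newborn samples were individual mice and 7 dpn samples were pools of several mice. The methods give 4 samples at 7 dpn whereas 6 carry that label, and all 6 were used. Every value below is a log2 ratio of ovary over reference for 1 probe, and differences between groups are differences of these log2 ratios, tested by limma with 1 mean per group and called at an adjusted p under 0.05 over all probes. Since the probes differ in efficiency, levels of different genes are not compared.

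Of the 60 members, 54 had an ovary signal well above background on all 15 arrays. The exceptions were Dkk4 on 0, Dkk1 on 5, Lef1 on 6, Wnt7a on 11, and Notch3 and Ptch1 on 14 of 15 arrays. The log2 ratio of a member spanned between 0.147 and 2.40 over the 15 arrays, with a median span of 0.589, and in 24 members it spanned less than 0.5.

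The single named Foxl2 probe lay between -0.33 and -0.15 on all 15 arrays and differed between null and wild-type ovaries by 0.08 at 7 dpn (limma adjusted p = 0.50) and by -0.05 in newborns (limma adjusted p = 0.62). It was well above background on all 15 arrays, null arrays included, did not tell the genotypes apart and cannot serve to check them. Oocyte markers, for which all 10 listed genes were on the array, had mean log2 ratios between 3.01 and 3.61 on every array. At 7 dpn they averaged 3.29 and 3.59 in wild-type, 3.61 and 3.44 in heterozygous and 3.14 and 3.18 in null ovaries, where Bmp15 and Oosp1 were lower than in either other genotype. The 6 granulosa markers averaged 2.34 and 2.16 on the wild-type, 1.49 and 1.64 on the heterozygous and 0.43 and 0.57 on the null arrays at 7 dpn, and 5 of the 6 were lower in null than in wild-type ovaries (Amh, Cyp19a1, Hsd17b1, Inha and Nr5a2). Theca and steroidogenic markers (5 of 6 on the array) averaged 2.01 and 1.45 in wild-type, 1.36 and 1.07 in heterozygous and -0.11 and 0.18 in null ovaries at that age, with 3 lower in null ovaries. In newborns the granulosa list ran from 0.74 to 1.63 in wild-type, from 0.49 to 0.56 in heterozygous and from 0.31 to 0.41 in null ovaries, and the theca list from 0.52 to 1.13, from 0.32 to 0.39 and from -0.18 to 0.36. The Sertoli list (5 of 6 on the array) was higher in null ovaries, at 0.77 and 0.87 against 0.38 and 0.35 in wild-type at 7 dpn and at 0.45 to 0.52 against -0.08 to 0.25 in newborns, with Sox9 called at both ages. The surface and tubal epithelium list (5 of 8) averaged -0.65 and -0.52 in null against -1.05 and -0.86 in wild-type ovaries at 7 dpn, with Krt18 and Pax8 called higher, and overlapped in newborns. Newborn wild-type replicate 1 stood apart from its group. Across probes it correlated with newborn heterozygous replicate 1 at r = 0.943 and with its own group at 0.905 and 0.883, and its granulosa markers averaged 1.63 against 0.74 and 0.89 on the other newborn wild-type arrays. It differed by more than 0.5 from the mean of those arrays in 9 of 60 members, while those arrays differed by more than 0.5 from each other in 6. The calls gained without replicate 1 are named with the comparison they belong to. At 7 dpn, wild-type replicate 1 correlated with heterozygous replicate 2 at r = 0.950 and with the other wild-type array at 0.933, and the calls lost without it are named with each member. The scanner software processed all newborn arrays on one day and all 7 dpn arrays on the next, so age and processing day cannot be told apart.

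**Figure D1:**
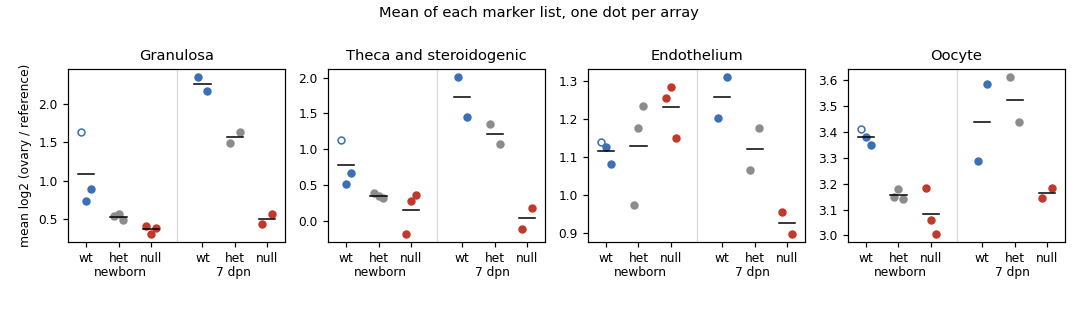
Mean log2 ratio of ovary over reference for the genes of the granulosa, theca and steroidogenic, endothelium and oocyte lists, per array, by age and genotype; each point is 1 array, the bar is the group mean, and the hollow point is newborn wild-type replicate 1. At 7 dpn the granulosa and theca lists were lowest on the null arrays, at 0.43 and 0.57 and at -0.11 and 0.18.

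At 7 dpn, 7 of the 60 members differed between null and wild-type ovaries, where 5.56% of all probes did. Wnt11, Wnt6 and Jag2 were higher in null ovaries (3 members, against 2.92% of all probes), and Gli1, Dkk3, Dll4 and Sfrp4 were lower (4 members, against 2.64%). The median difference over the 60 members was 0.02 and over all probes 0.01. Of the 7 calls, 4 were Wnt, 2 Notch and 1 Hedgehog genes. In newborns, 2 members differed, where 1.71% of all probes did, with Wnt11 higher (1.13% of all probes) and Dkk3 lower (0.583%) in null ovaries. Between null and heterozygous ovaries, Wnt11 and Wnt6 were higher in null ovaries at 7 dpn (1.98% of all probes called, 0.990% upward) and Wnt11 in newborns (0.356% called, 0.200% upward). Because RNA came from whole ovaries, fewer cells of a type and less RNA per cell cannot be told apart in any of these values. Per the methods each array held a separate mouse or pool of mice, and p-values measure the spread between these samples, array error included. A fit that leaves out a 7 dpn array leaves a single array in that group, and the spread then comes from the other groups. Leaving out 7 dpn null replicate 1 left 3 of the 7 members called at 7 dpn (2.22% of all probes), and leaving out newborn wild-type replicate 1 gave 5 in place of 2 calls in newborns (7.49% of all probes in place of 1.71%), with Lef1 higher and Dkk2 and Wnt16 lower (-0.25 and -0.71, limma adjusted p = 0.048 and 0.0067, against -0.13 and -0.47 with all arrays). With normexp background correction 12 members were called at 7 dpn (7.59% of all probes), the 7 above and Tcf7l1, Rspo2, Ihh and Hes5 lower and Heyl higher in null ovaries. With the arrays of that age alone 5 were called (3.08% of all probes), Wnt11, Wnt6, Gli1, Rspo2 and Hes5.

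**Figure D2:**
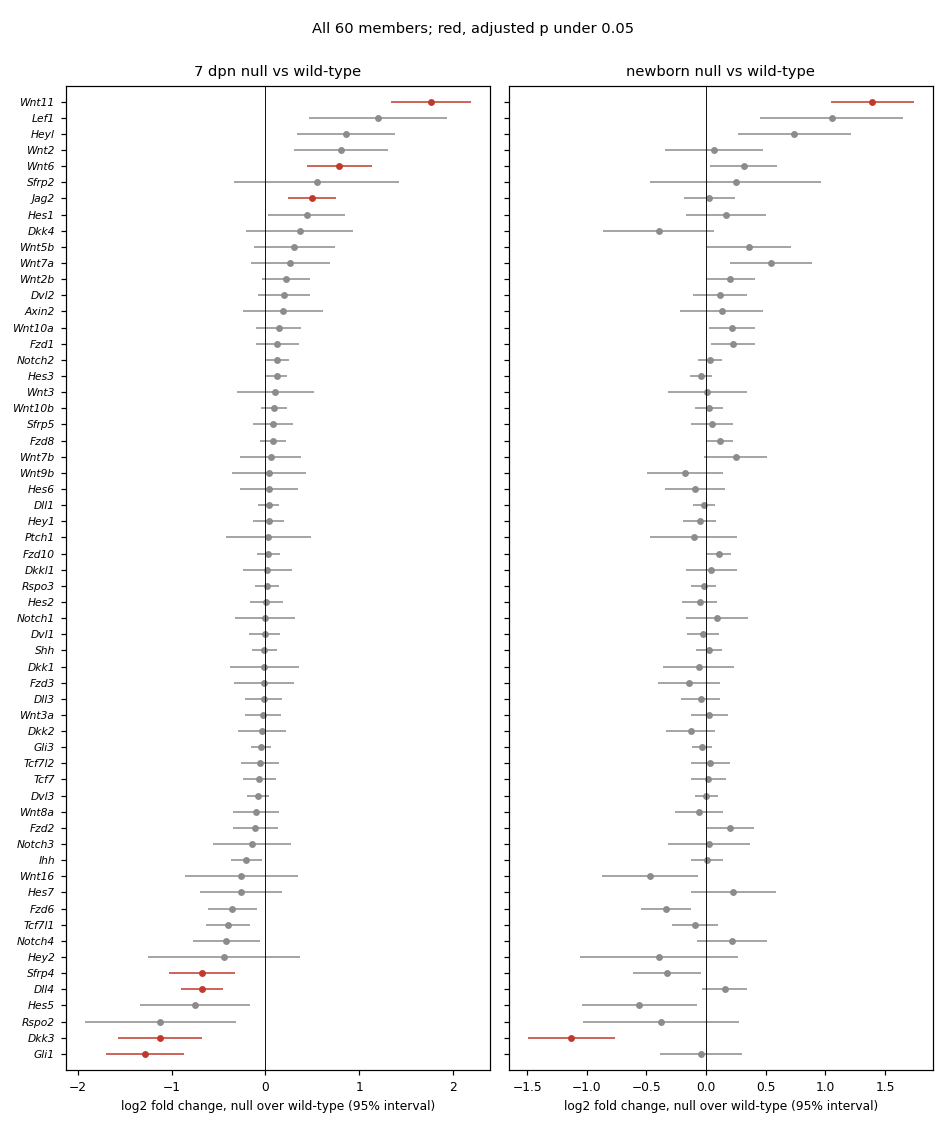
Difference in log2 ratio between null and wild-type ovaries for each of the 60 members at 7 dpn and in newborns, ordered by the 7 dpn value; points are estimates of the limma model, lines their 95% confidence intervals, and red marks members called at an adjusted p under 0.05. Most members lay near 0, with Wnt11 at 1.76 and Gli1 at -1.28 at the ends for 7 dpn.

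Among the 14 Wnt ligands on the array, Wnt11 and Wnt6 were higher in null ovaries. Wnt11, a ligand best known for signalling independently of beta-catenin, was the member with the largest rise. RefSeq promoter windows of 250 bases upstream of the start, on GRCm38.p6, were at hand for 41 of the 60 members and for 6 of the 11 called in any comparison. They were searched on both strands for CTTTGAT (bound by TCF/LEF), GTGGGAA (RBPJ), GTAAACA (forkhead proteins) and GACCACCCA (GLI). The windows of the 2 Wnt ligands, of the Notch ligand Dll4 and of the Notch target Hey2, whose values follow, are shown so that these letters can be seen in place, at chr7:98834862-98835111 on the plus strand for Wnt11, chr1:74771642-74771891 on the plus strand for Wnt6, chr2:119325534-119325783 on the plus strand for Dll4 and chr10:30842784-30843033 on the minus strand for Hey2. Each runs 5′ to 3′ toward the start, with motif matches in capitals.
Wnt11: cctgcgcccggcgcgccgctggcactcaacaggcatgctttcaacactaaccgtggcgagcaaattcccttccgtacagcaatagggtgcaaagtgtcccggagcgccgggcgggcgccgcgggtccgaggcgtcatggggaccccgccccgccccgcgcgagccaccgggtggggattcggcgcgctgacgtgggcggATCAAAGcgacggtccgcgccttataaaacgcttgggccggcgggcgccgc
Wnt6: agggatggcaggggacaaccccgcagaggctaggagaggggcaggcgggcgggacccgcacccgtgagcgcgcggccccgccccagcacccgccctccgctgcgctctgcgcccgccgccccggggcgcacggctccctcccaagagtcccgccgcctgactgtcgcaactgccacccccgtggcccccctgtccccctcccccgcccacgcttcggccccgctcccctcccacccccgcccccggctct
Dll4: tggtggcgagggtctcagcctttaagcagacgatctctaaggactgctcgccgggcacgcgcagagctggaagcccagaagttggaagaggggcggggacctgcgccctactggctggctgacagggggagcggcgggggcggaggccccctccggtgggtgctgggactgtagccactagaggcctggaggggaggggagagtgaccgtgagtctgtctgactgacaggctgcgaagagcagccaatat
Hey2: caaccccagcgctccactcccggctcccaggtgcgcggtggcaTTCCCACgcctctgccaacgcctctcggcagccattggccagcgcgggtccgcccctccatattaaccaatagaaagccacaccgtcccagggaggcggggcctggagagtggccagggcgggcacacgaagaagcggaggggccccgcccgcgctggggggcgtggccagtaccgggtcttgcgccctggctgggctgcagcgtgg
The Wnt11 window holds the TCF/LEF letters as ATCAAAG, beginning 51 bases before the start, and the second annotated Wnt11 start has none of the searched letters. The Hey2 window holds the RBPJ letters as TTCCCAC, beginning 207 bases before the start. The TCF/LEF letters occurred in 2 of 41 members (Wnt11 and Wnt5b) and in 3.21% of 32851 windows of this length, and the RBPJ letters in 4 members (Hes5, Hes7, Hey2 and Tcf7l1) and in 5.42% of windows. A member with several windows counts once if any of them holds the letters, so counts of members and shares of windows are unlike measures. The forkhead letters, found in 3.17% of windows, and the GLI letters, found in 0.225%, occurred in 0 of the 41. A match is a string of letters and not a shown binding site.

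The log2 ratio of Wnt11 at 7 dpn was 1.27 and 1.13 in wild-type, 1.96 and 1.86 in heterozygous and 3.10 and 2.82 in null ovaries. In newborns it was 0.70, 1.47 and 1.20 in wild-type, 1.36, 1.56 and 1.43 in heterozygous and 2.58, 2.43 and 2.54 in null ovaries. At both ages every null array lay above every heterozygous and wild-type array, and at 7 dpn both heterozygous arrays lay between the other genotypes. Null ovaries were 3.40-fold above wild-type at 7 dpn (difference 1.76, SE 0.19, limma adjusted p = 0.00050) and 2.63-fold in newborns (1.39, SE 0.16, limma adjusted p = 0.0013). Both calls remained without each array in turn, with differences from 1.64 to 1.90 at 7 dpn and from 1.18 to 1.56 in newborns. The null effect did not pass the test for a difference between the ages (0.37, limma adjusted p = 0.67). Against heterozygous ovaries Wnt11 was higher by 1.05 at 7 dpn (SE 0.19, limma adjusted p = 0.019) and by 1.07 in newborns (SE 0.16, limma adjusted p = 0.017). The first of these calls was lost without either null or either heterozygous 7 dpn array (0.93 to 1.19 over all arrays left out), and the second without any newborn null array or without newborn heterozygous replicate 1 or 3 (1.03 to 1.13). The second was also lost with the replicate block and with the arrays of that age alone (limma adjusted p = 0.059 and 0.089).

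Wnt6, a ligand of epithelial and mesenchymal tissues, measured 2.55 and 2.82 in wild-type, 2.76 and 2.71 in heterozygous and 3.57 and 3.37 in null ovaries at 7 dpn. Newborn values were 2.70, 3.07 and 3.18 in wild-type, 2.95, 3.12 and 3.04 in heterozygous and 3.48, 3.20 and 3.22 in null ovaries. The null arrays stood above the rest at 7 dpn, while in newborns they exceeded the highest wild-type value, 3.18, with 2 of the 3 arrays at 3.20 and 3.22. The difference between null and wild-type ovaries was 1.72-fold at 7 dpn (0.79, SE 0.16, limma adjusted p = 0.015) and 0.32 in newborns (limma adjusted p = 0.29). The 7 dpn call was lost without null replicate 1 (0.67), null replicate 2 (0.88) or wild-type replicate 1 (0.65). Against heterozygous ovaries Wnt6 was higher by 0.73 at 7 dpn (SE 0.16, limma adjusted p = 0.040), a call lost in 10 of the 15 fits that left out an array. These were the fits without a 7 dpn null array (0.63 and 0.83), a 7 dpn heterozygous array (0.76 and 0.72), any newborn heterozygous array, newborn null replicate 2 or 3 or newborn wild-type replicate 2 (0.72 to 0.73). It was also lost with median centring (0.65), the series values (0.64), the replicate block and the arrays of that age alone (limma adjusted p = 0.071, 0.052, 0.080 and 0.092). The Sertoli list was higher in null ovaries at both ages and the surface and tubal epithelium list at 7 dpn, as given above, and their part in the Wnt11 and Wnt6 results was not tested.

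**Figure D3:**
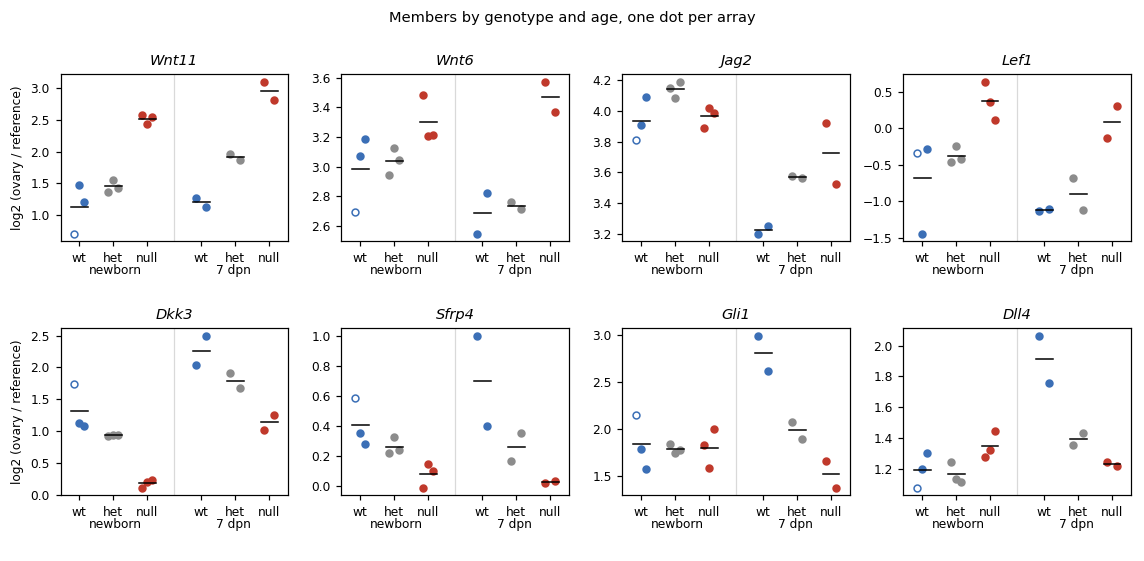
Log2 ratio of ovary over reference for the 7 members called between null and wild-type ovaries and for Lef1, per array, by age and genotype; each point is 1 array, the bar is the group mean, and the hollow point is newborn wild-type replicate 1. Wnt11 was above 2.4 on every null array and at most 1.96 on every other array.

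Wnt2, which is expressed in granulosa cells, was not called. Its 7 dpn values were 2.84 and 2.13 in wild-type, 3.26 and 3.23 in heterozygous and 2.99 and 3.58 in null ovaries, so that the wild-type arrays lay below all mutant arrays (null against wild-type 0.81, limma adjusted p = 0.069). In newborns it ran from 2.23 to 2.51 in wild-type, from 2.36 to 2.62 in heterozygous and from 2.28 to 2.58 in null ovaries, which overlapped. Wnt10a, a ligand of skin appendages and teeth, showed no genotype call but was lower at 7 dpn than in newborns in heterozygous ovaries, at -3.55 and -3.51 against -2.91, -2.95 and -3.05 (-0.57, limma adjusted p = 0.0065; lost without 7 dpn heterozygous replicate 1, and -0.31 without a call in the ovary channel alone, limma adjusted p = 0.42). The other 10 Wnt ligands (Wnt2b, Wnt3, Wnt3a, Wnt5b, Wnt7a, Wnt7b, Wnt8a, Wnt9b, Wnt10b and Wnt16) differed between null and wild-type ovaries at 7 dpn by -0.25 to 0.31 and none was called. One of the null arrays gave no value for Wnt16.

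The antagonists did not move as a group. Of the 8 Dkk and Sfrp family members, Dkk3 and Sfrp4 were lower in 7 dpn null ovaries and the other 6 differed by -0.04 to 0.55 without a call. Dkk3 is a secreted member of the Dickkopf family that, unlike Dkk1, is not a classical inhibitor of Wnt co-receptors. Its log2 ratio at 7 dpn was 2.03 and 2.50 in wild-type, 1.91 and 1.67 in heterozygous and 1.02 and 1.25 in null ovaries, and in newborns it was 1.73, 1.12 and 1.08 in wild-type, 0.92, 0.94 and 0.94 in heterozygous and 0.12, 0.20 and 0.23 in null ovaries. The genotypes did not overlap at either age and stood in the order wild-type, heterozygous, null. Null ovaries were 2.18-fold below wild-type at 7 dpn (-1.13, SE 0.20, limma adjusted p = 0.0089) and 2.19-fold below in newborns (-1.13, SE 0.17, limma adjusted p = 0.0066). The 7 dpn call was lost without null replicate 1 (-0.99), without wild-type replicate 2 (-0.85) and with the arrays of that age alone (limma adjusted p = 0.053). The newborn call remained without each array, and was lost in the ovary channel alone (-1.11, limma adjusted p = 0.071). Dkk3 was also higher at 7 dpn than in newborns in each genotype, by 0.95 in wild-type, 0.86 in heterozygous and 0.95 in null ovaries (limma adjusted p = 0.011, 0.018 and 0.022). These calls were lost without 7 dpn wild-type replicate 2 (0.68), without either 7 dpn heterozygous array or newborn heterozygous replicate 1 (0.74 to 0.98), and without either 7 dpn null array or newborn null replicate 2 or 3 (0.83 to 1.08), respectively. In heterozygous and null ovaries they were also lost with the replicate block (limma adjusted p = 0.053 and 0.068) and in the ovary channel alone (limma adjusted p = 0.057 and 0.15). Between null and heterozygous ovaries Dkk3 differed by -0.65 at 7 dpn and -0.75 in newborns, without a call (limma adjusted p = 0.18 and 0.11), and both were called without newborn wild-type replicate 1 at nearly the same sizes (-0.65 and -0.74, limma adjusted p = 0.032 and 0.020). The granulosa list stood in the same order of genotypes without overlap at both ages, and the theca list at 7 dpn, and their part in the Dkk3 result was not tested.

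Sfrp4, a secreted Frizzled-related protein, measured 1.00 and 0.40 in wild-type, 0.16 and 0.35 in heterozygous and 0.02 and 0.03 in null ovaries at 7 dpn. Wild-type replicate 1 set much of the difference of -0.67 (1.59-fold, SE 0.16, limma adjusted p = 0.034), which was -0.38 without it. The call was lost in 8 of the 15 fits that left out an array, namely without that array, either 7 dpn null array, any newborn heterozygous array or newborn null replicate 2 or 3, and apart from the first the difference lay between -0.69 and -0.67 in these. It was also lost with the replicate block, the arrays of that age alone, median centring and the ovary channel alone (limma adjusted p = 0.061, 0.19, 0.0504 and 0.63). Newborn values ran from 0.28 to 0.58 in wild-type, from 0.22 to 0.32 in heterozygous and from -0.01 to 0.15 in null ovaries. Sfrp2, also a Frizzled-related protein, was not called (0.55 at 7 dpn, limma adjusted p = 0.59). Its 7 dpn values were -0.73 and -0.17 in wild-type, -0.53 and -0.03 in heterozygous and 0.17 and 0.02 in null ovaries. In newborns it measured -0.53, 0.45 and 0.81 in wild-type, 0.63, 0.73 and 0.86 in heterozygous and -0.05, 0.85 and 0.67 in null ovaries, and the low wild-type value is that of replicate 1.

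Of the 6 Frizzled receptors, the 4 cytoplasmic members and the 4 Lef/Tcf factors, none was called between genotypes at either age. Fzd1 lay between -0.16 and 0.30 on all arrays (null against wild-type 0.13 at 7 dpn, limma adjusted p = 0.64). Axin2, a feedback target of beta-catenin, lay between -0.31 and 0.43, and null and wild-type ovaries differed by 0.19 at 7 dpn (limma adjusted p = 0.74) and by 0.13 in newborns (limma adjusted p = 0.77). Tcf7l1, mostly a repressor of Wnt targets, measured 2.51 and 2.50 in wild-type, 2.45 and 2.33 in heterozygous and 2.21 and 2.00 in null ovaries at 7 dpn and missed the threshold (-0.40, limma adjusted p = 0.052). Rspo2, an R-spondin that enhances Wnt signalling and is known from oocytes, measured 3.00 and 2.69, 2.87 and 2.66, and 1.72 and 1.73 in the same order. Its null arrays lay below all others of that age, but the difference of -1.12 did not pass (SE 0.36, limma adjusted p = 0.12). With the arrays of that age alone it was called at the same size (limma adjusted p = 0.024). The oocyte list, given above, was lower on the null than on the other 7 dpn arrays, and its part in the Rspo2 values was not tested.

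Lef1, a transcriptional partner of beta-catenin, was near the detection limit. The probe was well above background on both null arrays at 7 dpn and on all 3 in newborns, on 0 of the 5 heterozygous arrays, and on 1 of the 5 wild-type arrays. Its log2 ratio at 7 dpn was -1.13 and -1.10 in wild-type, -0.68 and -1.12 in heterozygous and -0.13 and 0.30 in null ovaries, and in newborns it was -0.34, -1.44 and -0.28 in wild-type, -0.46, -0.24 and -0.42 in heterozygous and 0.64, 0.35 and 0.11 in null ovaries. Every null array of an age thus lay above every other array of that age. On each array of the dimmer group the higher of the probe's own signal and the lowest above-background signal of any probe was taken. That lowest signal is not a detection limit of the Lef1 probe itself, so the folds are not strict lower bounds. Set against the mean of these, 7 dpn null ovaries were 1.60-fold higher than wild-type (limma adjusted p = 0.065). Against heterozygous ovaries they were 1.81-fold higher (limma adjusted p = 0.24). On every newborn heterozygous array the probe's own signal was the higher. The 1.55-fold of newborn null over heterozygous ovaries is thus the observed difference in ovary signal (limma adjusted p = 0.43). None of these passed the threshold. No fold is given for newborn null against wild-type ovaries, where 1 of 3 wild-type arrays was well above background (limma adjusted p = 0.098). Without newborn wild-type replicate 1 this difference was called (limma adjusted p = 0.036). The Sertoli list at both ages and the surface and tubal epithelium list at 7 dpn were also higher in null ovaries, and their part in the Lef1 values was not tested.

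The Hedgehog family was represented by Shh, Ihh, Ptch1, Gli1 and Gli3, and Gli1 was the only one called. Gli1 is the transcriptional activator of the pathway and one of its target genes. The brighter of its 2 probes measured 2.99 and 2.62 in wild-type, 2.07 and 1.90 in heterozygous and 1.66 and 1.38 in null ovaries at 7 dpn. In newborns it measured 2.16, 1.79 and 1.58 in wild-type, 1.85, 1.75 and 1.78 in heterozygous and 1.83, 1.59 and 2.00 in null ovaries. The genotypes stood apart at 7 dpn and overlapped in newborns. At 7 dpn null ovaries were 2.43-fold below wild-type (-1.28, SE 0.19, limma adjusted p = 0.0030), a call that remained without each array in turn (-1.48 to -1.10). The ovary channel alone gave -1.10 without a call (limma adjusted p = 0.11). In wild-type ovaries the probe was 0.96 higher at 7 dpn than in newborns (limma adjusted p = 0.0084; lost without 7 dpn wild-type replicate 1, 0.76). It was also lost in the ovary channel alone (1.04, limma adjusted p = 0.083) and with the mean over both probes (0.53, limma adjusted p = 0.052), and the dimmer probe alone gave 0.11. The null effect at 7 dpn differed from that in newborns by -1.24, which did not pass with all arrays (limma adjusted p = 0.083) and passed without newborn wild-type replicate 1 (-1.41, limma adjusted p = 0.0089).

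The dimmer Gli1 probe, well above background on 13 of 15 arrays, did not show this pattern. It differed between null and wild-type ovaries by 0.09 at 7 dpn and 0.05 in newborns and was not called, and the mean of both probes gave -0.60 at 7 dpn (limma adjusted p = 0.064). Ptch1, the receptor and also a target, measured 0.11 and -0.40 in wild-type, -0.15 and -0.07 in heterozygous and -0.09 and -0.13 in null ovaries at 7 dpn (0.03, limma adjusted p = 0.97). Ihh, a ligand made by granulosa cells, measured 0.30 and 0.28 in wild-type, 0.15 and 0.19 in heterozygous and 0.04 and 0.13 in null ovaries. The order of its genotypes was that of Gli1, within a narrow range (-0.20, SE 0.07, limma adjusted p = 0.17), and in newborns all arrays lay between -0.03 and 0.24. Shh and Gli3 differed by -0.01 and -0.05. The theca and steroidogenic list, whose cells receive Hedgehog signals, was lower in null ovaries at 7 dpn as given above, and its part in the Gli1 result was not tested.

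**Figure D4:**
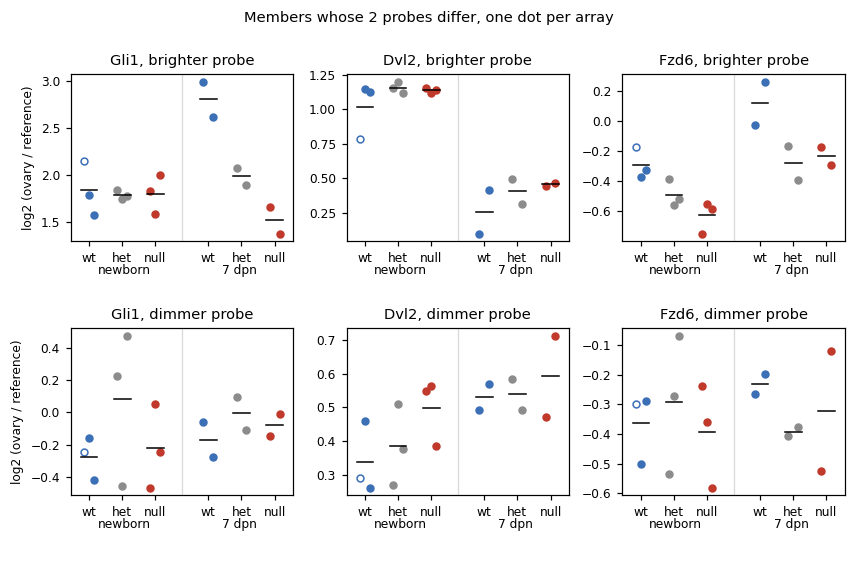
Log2 ratio of ovary over reference at the brighter (upper panels) and dimmer (lower panels) probe of Gli1, Dvl2 and Fzd6, per array, by age and genotype; each point is 1 array, the bar is the group mean, and the hollow point is newborn wild-type replicate 1. The genotypes stood apart at 7 dpn at the brighter Gli1 probe, where null and wild-type ovaries differed by -1.28, and differed by 0.09 at the dimmer one.

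Among the 4 Notch ligands, Dll4 was lower and Jag2 higher in null ovaries at 7 dpn, while Dll1 and Dll3 differed by 0.03 and -0.02. Dll4 is the Delta ligand of sprouting vessels. It measured 2.06 and 1.76 in wild-type, 1.35 and 1.43 in heterozygous and 1.25 and 1.22 in null ovaries at 7 dpn, and 1.08, 1.20 and 1.30, 1.25, 1.13 and 1.11, and 1.28, 1.32 and 1.45 in the same order in newborns. Both wild-type arrays at 7 dpn stood above all other 13 arrays. Null ovaries were 1.60-fold below wild-type at 7 dpn (-0.68, SE 0.10, limma adjusted p = 0.0036), which remained without each array, and 0.16 above in newborns without a call. The call was lost in the ovary channel alone (-0.59) and with the arrays of that age alone (limma adjusted p = 0.055). In wild-type ovaries Dll4 rose by 0.72 from newborn to 7 dpn (limma adjusted p = 0.0022), and by 0.26 without a call in the ovary channel alone (limma adjusted p = 0.50). The null effect differed between the ages by -0.83 (SE 0.13, limma adjusted p = 0.048; 0.156% of all probes called, 0.0683% in this direction), and this was the 1 member called in that test. The call remained only without 7 dpn wild-type replicate 2 (-1.02) or newborn wild-type replicate 1 (-0.77) among the 15 fits that left out an array, and without 7 dpn wild-type replicate 1 the difference was -0.64. It was also lost in the ovary channel alone (-0.57), with the series values (-0.73), the replicate block, median centring (-0.78) and a span of 0.3 (-0.79; limma adjusted p = 0.66, 0.10, 0.087, 0.14 and 0.055). The endothelial markers (7 of 9 on the array) averaged 1.20 to 1.31 in wild-type and 0.90 to 0.96 in null ovaries at 7 dpn with 0 of them called, and their part in the Dll4 result was not tested.

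Jag2, a Jagged ligand, measured 3.20 and 3.25 in wild-type, 3.58 and 3.57 in heterozygous and 3.92 and 3.52 in null ovaries at 7 dpn. In newborns it lay between 3.81 and 4.09 in wild-type, between 4.08 and 4.19 in heterozygous and between 3.89 and 4.02 in null ovaries. Both wild-type arrays at 7 dpn were below all other arrays, and 1 null array was level with the heterozygous ones. The 1.41-fold difference between null and wild-type ovaries (0.50, SE 0.12, limma adjusted p = 0.034) was 0.30 without null replicate 1, where the call was lost. It was also lost without either 7 dpn wild-type array (0.47 and 0.52), 7 dpn heterozygous replicate 1, newborn heterozygous replicate 1 or 3 or newborn null replicate 2 or 3 (0.49 to 0.50), and with a loess span of 0.3, the ovary channel alone (0.76) or the arrays of that age alone (limma adjusted p = 0.086, 0.051 and 0.16). From newborn to 7 dpn Jag2 fell by 0.71 in wild-type ovaries and by 0.57 in heterozygous ovaries (limma adjusted p = 0.0042 and 0.0096), the second of which was lost without either 7 dpn heterozygous array (-0.57 and -0.56). Both were lost in the ovary channel alone (-0.64 and -0.49).

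The 4 Notch receptors were not called in any comparison with all arrays. Notch2, the receptor of pregranulosa cells, lay between -0.35 and -0.16 on all arrays (0.13 at 7 dpn, limma adjusted p = 0.26). Notch3, a receptor of pericytes and smooth muscle, ran from -0.43 to 0.30 with the extremes in different groups (-0.14, limma adjusted p = 0.82). Notch4, an endothelial receptor, measured 0.77 and 1.13 in wild-type and 0.52 and 0.55 in null ovaries at 7 dpn (-0.42, limma adjusted p = 0.20).

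Of the 9 Hes and Hey factors, the transcriptional repressors that Notch induces, 0 were called between genotypes. Heyl measured 3.44 and 2.63 in wild-type, 3.82 and 3.72 in heterozygous and 3.91 and 3.88 in null ovaries at 7 dpn. In newborns it was 3.08, 3.38 and 3.35 in wild-type, 3.67, 3.32 and 3.56 in heterozygous and 3.82 and 4.20 on the 2 null arrays that gave a value. Null arrays were the highest of their age, with differences of 0.86 (limma adjusted p = 0.065) and 0.74 (limma adjusted p = 0.15). Hes1 ran from 0.37 to 0.45 in wild-type, from 0.13 to 0.42 in heterozygous and from 0.74 to 0.96 in null ovaries at 7 dpn (0.44, limma adjusted p = 0.25, and 0.47 at its other probe). Hes5 measured 1.44 and 1.36, 1.73 and 1.43, and 0.58 and 0.72, so that it pointed the opposite way from Heyl and Hes1 (-0.75, limma adjusted p = 0.15, and 0.048 with the arrays of that age alone). Hey1 lay between 0.04 and 0.27 on all arrays.

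Hey2, which was called with age, was variable between arrays. In heterozygous ovaries it measured 3.52, 3.09 and 3.40 in newborns and 4.80 and 4.56 at 7 dpn, a 2.53-fold difference (1.34, SE 0.34, limma adjusted p = 0.035) whose call was lost without any heterozygous array (1.22 to 1.46) and without either 7 dpn null array (1.34). The call was also lost with the replicate block (1.35, limma adjusted p = 0.073). Over all alternatives the difference ran from 1.22 to 2.08. The wild-type arrays measured 4.06, 3.54 and 2.87 in newborns and 4.32 and 4.0 at 7 dpn, and the null arrays 2.70, 2.89 and 3.69 and then 3.60 and 3.83, and the ages overlapped in both genotypes.

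Across age, 6 members were called in wild-type ovaries (4 higher and 2 lower at 7 dpn, against 9.00% of all probes, 5.13% higher and 3.87% lower), 5 in heterozygous ovaries (2 and 3, against 7.55%, with 3.43% and 4.12%) and 2 in null ovaries (1 and 1, against 3.08%, with 1.53% and 1.54%). In wild-type ovaries these were Dkk3, Dll4, Gli1 and Fzd6 upward and Jag2 and Dvl2 downward. Without newborn wild-type replicate 1, 14 members were called in wild-type ovaries, 6 higher and 8 lower, while the share of all probes called rose to 19.2%. Those gained were Hes7 and Rspo2, higher at 7 dpn, and Dkk2, Hey1, Sfrp2, Wnt6, Wnt9b and Wnt16, lower. Sfrp2 was then also called lower in heterozygous ovaries, and Wnt11 higher in heterozygous and in null ovaries (9.73% and 4.79% of all probes called). Dvl2, a Dishevelled protein, measured 0.78 to 1.15 in newborn and 0.10 and 0.41 in 7 dpn wild-type ovaries. The change from newborn to 7 dpn was -0.76 in wild-type, -0.75 in heterozygous and -0.68 in null ovaries (limma adjusted p = 0.0039, 0.0032 and 0.012), the last of which was lost without either 7 dpn null array (-0.66 and -0.71). Its dimmer probe differed by 0.19, 0.15 and 0.09 in the other direction without a call, and the mean of both probes lost all 3 calls. Fzd6, a Frizzled of planar cell polarity, measured -0.17, -0.37 and -0.32 in newborn and -0.03 and 0.26 in 7 dpn wild-type ovaries (0.41, limma adjusted p = 0.038), and its other probe differed by 0.13. The Fzd6 call was lost in 7 of 15 fits that left out an array, without newborn or 7 dpn wild-type replicate 2 (0.36 and 0.29), newborn wild-type replicate 3 (0.38), newborn null replicate 3, newborn heterozygous replicate 2 or 3 or 7 dpn null replicate 2 (0.39 to 0.42). It was also lost in the ovary channel alone (0.51) and with the series values (0.34), the replicate block (0.40) and the mean over probes (0.27; limma adjusted p = 0.12, 0.089, 0.087 and 0.071).

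In heterozygous ovaries 0 members were called against wild-type by limma, at 7 dpn (0.0488% of all probes called) or in newborns (0.0195%). At an unadjusted p under 0.05 there were 11 members at 7 dpn (18.3%, against 8.89% of all probes) and 7 in newborns (11.7%, against 12.9%), and normexp background correction called Dll4 at 7 dpn (-0.41, limma adjusted p = 0.034; 0.271% of all probes). With 7 dpn wild-type replicate 1 left out, Heyl was 1.14 higher in heterozygous ovaries than on the single wild-type array left at that age. Without newborn wild-type replicate 1, Wnt11 was called at 7 dpn (0.72, limma adjusted p = 0.037, against 0.71 and 0.25 with all arrays; 0.317% of all probes), and Dkk2, Wnt16 and Wnt9b were called lower in newborns (6.14% of all probes called). The heterozygous effect did not differ between the ages for any member (0.00244% of all probes called, 3 members or 5% at an unadjusted p under 0.05, against 7.34% of all probes). For the 7 members called between null and wild-type ovaries at 7 dpn, the heterozygous mean lay between the other 2 means in 7 of 7, which also held for 86.7% of all probes called there. Taking wild-type as 0% and null as 100%, it lay at 6.72% for Wnt6, 40.4% for Wnt11, 42.0% for Dkk3, 63.8% for Gli1, 65.6% for Sfrp4, 69.2% for Jag2 and 76.2% for Dll4, with a median of 63.8% against 38.6% over all called probes. In newborns only 2 members were called, Wnt11 at 23.2% and Dkk3 at 33.4%, with a median of 28.3% against 39.5% over all called probes. At 7 dpn the same 2 lay at 40.4% and 42.0%, so the medians of the ages cover different members and are not compared. These places carry the error of 2 arrays per group at 7 dpn and 3 in newborns and were not tested.

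Other genes of the same pathways that the name rule does not cover were read from a list of 96, of which 61 were on the array. At 7 dpn, 8 of the 61 differed between null and wild-type ovaries, 4 higher and 4 lower (5.56% of all probes called, 2.92% upward and 2.64% downward), and 1, Wif1, was higher in null than in heterozygous ovaries (0.990% upward). In newborns 5 were higher in null than in wild-type ovaries (1.13% of all probes upward). Wif1, a secreted inhibitor that binds Wnt proteins, measured 0.84 and 1.19 in wild-type, 0.22 and 1.06 in heterozygous and 2.61 and 3.48 in null ovaries at 7 dpn. In newborns it measured 0.67, 0.62 and 0.13, then 0.87, 0.27 and 1.17, and then 2.33, 2.06 and 1.93. At both ages all null arrays lay above all others, with differences from wild-type of 2.03 (SE 0.37, limma adjusted p = 0.0095) and 1.63 (SE 0.30, limma adjusted p = 0.022). With normexp background correction the Wif1 differences were 1.04 and 0.51, and over 26 alternatives it was called in 23 at 7 dpn and in 20 in newborns.

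Lgr5, a receptor for R-spondins, measured 1.05 and 0.65 in wild-type, 1.27 and 0.63 in heterozygous and 2.40 and 1.80 in null ovaries at 7 dpn (1.25, SE 0.26, limma adjusted p = 0.020), and it was lower at 7 dpn than in newborns in wild-type ovaries (-0.89, limma adjusted p = 0.045). Gas1, a Hedgehog co-receptor at the cell surface, measured -0.07 and -0.10 in wild-type, 0.51 and 0.64 in heterozygous and 0.84 and 0.74 in null ovaries at 7 dpn (0.88, SE 0.10, limma adjusted p = 0.00080), and the genotypes did not overlap. Dtx1, a Deltex protein that modulates Notch, was higher in null ovaries by 0.63 at 7 dpn and by 0.56 in newborns (limma adjusted p = 0.023 and 0.032). The 4 lower at 7 dpn were the planar polarity cadherin Celsr1 (-1.06), the secreted Wnt antagonist Frzb (-0.54), the Wnt receptor Ror2 (-0.46) and the Notch glycosyltransferase Mfng (-0.35). Dhh, the Hedgehog ligand of Sertoli and granulosa cells, was not called between null and wild-type ovaries in newborns (1.32, limma adjusted p = 0.098) or at 7 dpn (0.46, limma adjusted p = 0.69), and was higher at 7 dpn than in newborns by 1.63 in wild-type and 1.54 in heterozygous ovaries (limma adjusted p = 0.023 and 0.033).

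**Figure D5:**
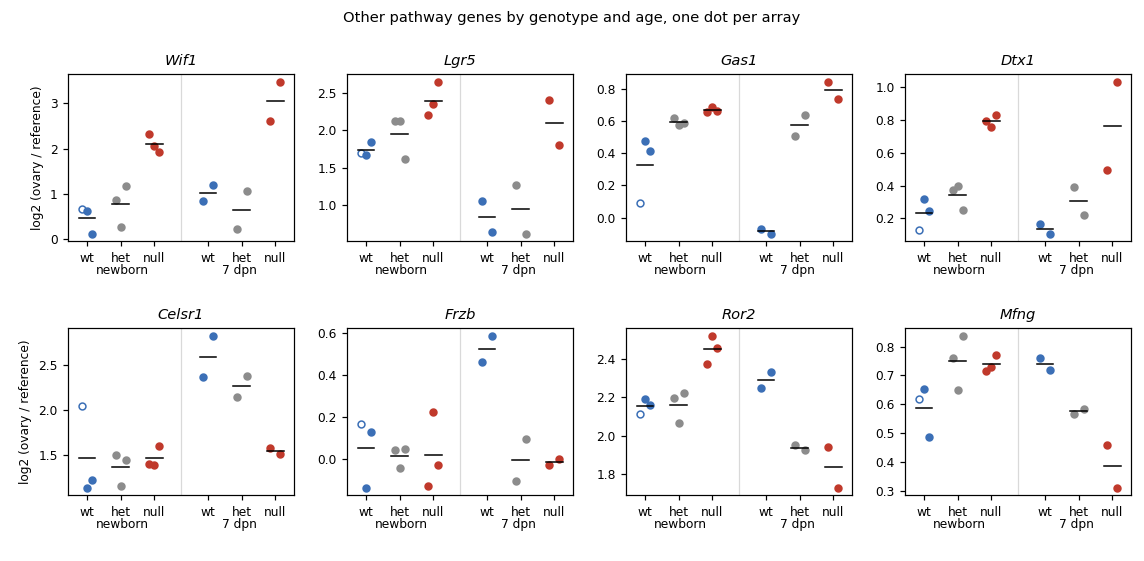
Log2 ratio of ovary over reference for the 8 genes of the wider pathway list called between null and wild-type ovaries at 7 dpn, per array, by age and genotype; each point is 1 array, the bar is the group mean, and the hollow point is newborn wild-type replicate 1. Wif1 was at 1.93 or more on every null array and at 1.19 or less on every other array.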

How the data were processed

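Ovary RNA (Cy3) was measured against a universal reference (Cy5) on 15 arrays. The authors deposited scanner output with processed intensity per spot and channel, in which Agilent Feature Extraction 7.5.1 had subtracted background and balanced the dyes. A deposited series table, of unstated scale, was taken to log2 and tried as an alternative. The log10 ratio columns that the authors deposited were not used. The labels name a linear amplification kit, while the methods describe 7 dpn RNA as not amplified. Some labels give the age of 7 dpn samples as birth, and their titles were followed.

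Processed intensities were turned into log2 ratios of Cy3 over Cy5. Control spots (2396 per array) and outlier spots (7 to 100 per array) were left out and spots of a probe averaged, leaving 41006 probes, of which RefSeq accessions named 15294. Each array was normalized by local linear loess (span 0.01) against the mean of all arrays. The methods give a local mean. Focus, which the methods name for ranking, was replaced by limma 3.58.1 (R 4.3.3), with 6 group means, eBayes and Benjamini-Hochberg adjustment over all probes, for 11 comparisons, and the procedure was tested on simulated data. Between 93.2 and 96.5% of probes per array were well above background, and the number of arrays limits precision. Values per array are given for members called in any comparison and for members with a known role in follicle, theca or granulosa cells. The members and lists were chosen with earlier results of these data known. Alternatives are given in the closing section.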

Additional observations from a re-analysis of the deposited data

Results flagged for a closer look

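The null effect is the difference between null and wild-type ovaries. In 2 genes of these pathways it differed between the ages by a test of that difference within the limma model. They were 1 of the 60 members and 1 of the 61 wider genes, where 0.156% of all probes were called. For Dll4, a Notch ligand, the effect at 7 dpn minus that in newborns was -0.832 on the log2 scale (limma adjusted p = 0.048), with -0.68 at 7 dpn and 0.16 in newborns. The call remained in 2 of 15 fits that left out an array, and was lost in the ovary channel alone and with the series values, the replicate block, median centring and a span of 0.3. For Ror2, a Wnt receptor of the wider list, it was -0.752 (limma adjusted p = 0.033), called in 12 of 25 alternatives with values from -0.87 to -0.64. Ror2 measured 2.25 and 2.33 in wild-type and 1.94 and 1.73 in null ovaries at 7 dpn, against 2.11, 2.19 and 2.16 in wild-type and 2.37, 2.52 and 2.46 in null ovaries of newborns, so that the groups did not overlap at either age and stood in opposite order. Its null effect was called at 7 dpn (-0.46, limma adjusted p = 0.0073) and in newborns (0.30, limma adjusted p = 0.0495). Age cannot be told apart from processing day in these arrays.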

How the results depend on the processing

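Each of the 26 called member values was refitted under the alternatives, in 662 fits. None turned its direction, 539 remained called and 123 lost the call, and Wnt11 against wild-type was called at both ages in each. Over the 15 fits that each left out an array, the members called ranged as follows. Between null and wild-type ovaries they were 3 to 8 at 7 dpn (1.82 to 7.31% of all probes) and 2 to 5 in newborns (0.773 to 7.49%), and between null and heterozygous ovaries 0 to 3 (0.576 to 2.94%) and 0 to 2 (0.0854 to 0.546%). Between heterozygous and wild-type ovaries they were 0 to 1 (0 to 0.52%) and 0 to 3 (0 to 6.14%). Across age they were 5 to 14 in wild-type (3.6 to 19.2%), 1 to 7 in heterozygous (2.84 to 9.73%) and 0 to 3 in null ovaries (0.21 to 4.79%). The difference of the null effect between ages called 0 to 2 (0.0147 to 3.69%) and that of the heterozygous effect 0 to 0 (0 to 1.79%). In any comparison 13 to 21 genes of the wider list were called, against 15 with all arrays. No share of all probes was taken over the comparisons together, so this count is not read as a result about these genes.

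The replicate number does not mark a shared litter or day in the labels, and of 33 same-numbered pairs of arrays 3 correlated above 0.1 (median r -0.016). With the replicate block, the members called were 1 for null against heterozygous ovaries at 7 dpn (1.71% of all probes), 0 for the same in newborns (0.215%), 1 across age in null ovaries (1.64%) and 0 for the null effect between ages (0.0268%). The calls lost with it were Sfrp4 (null against wild-type) and Wnt6 (null against heterozygous) at 7 dpn, Wnt11 (null against heterozygous) in newborns, Fzd6 across age in wild-type, Hey2 and Dkk3 in heterozygous and Dkk3 in null ovaries, and Dll4 for the null effect between ages.

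In the following, the share of all probes called in the same fit stands in brackets after each count of members. Counts of wider genes run over all comparisons together and have no such share, so they are not read as results about these genes. Array weights gave 4 members for null against heterozygous at 7 dpn (3.87%) and 3 in newborns (1.03%), in newborns 5 for null (7.66%) and 3 for heterozygous ovaries (6.04%) against wild-type, 5 across age in null ovaries (7.89%), 2 for the null effect between ages (1.7%) and 26 wider genes. Normexp background correction gave at 7 dpn 12 members for null against wild-type (7.59%), 5 between the mutant genotypes (3.01%) and 1 for heterozygous against wild-type (0.271%), 10 across age in wild-type (11.7%) and 2 between ages (0.563%). The ovary channel alone gave 3, 2 and 1 across age in wild-type, heterozygous and null ovaries (2.38%, 2.31% and 0.485%), 0 between ages (0.00244%) and 7 wider genes. Median centring and the series values each gave 1 for null against heterozygous at 7 dpn (1.86% and 1.68%) and 0 between ages (0.176% and 0.0927%), and a span of 0.3 gave 0 between ages (0.159%). The mean over probes gave 3 and 1 across age in wild-type and null ovaries (8.99% and 3.08%). Arrays of one age alone gave 1 and 0 for null against heterozygous at 7 dpn and in newborns (0.951% and 0.154%). A threshold of 0.01 gave 4 for null against wild-type at 7 dpn (2.16%), 0 at either age for null against heterozygous (0.71% and 0.122%), 3 and 0 across age in heterozygous and null ovaries (2.88% and 0.68%), and 0 between ages (0.0122%). A threshold of 0.10 gave 11 (8.62%), 5 across age in null ovaries (5.27%) and 2 between ages (0.571%). The causes were not tested. With 2 or 3 arrays per group, precision is limited, and 6 members were not above background on every array.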
